A study of Mus musculus with 28 samples.

Results

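A set of 42 interferon-stimulated genes outside the Ifit, Oas, Irf, IRG and GBP families was followed across all groups of the study. Of these 42 genes, 39 had a probe set (the group of probes that reports 1 transcript) with a single gene symbol, and all 39 were among the 13512 genes tested. They were taken as listed, by name and not by their values. Isg15 shares its probe set with Gm9706 and Ifi204 shares its probe set with Ifi211, and neither was analysed here, nor was Ifi44.

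Type I interferons bind a receptor on the cell surface and activate the kinases Jak1 and Tyk2, which switch on transcription factors that bind interferon-stimulated response elements in promoters. The genes so induced encode sensors of viral nucleic acid, enzymes and membrane proteins that block viral entry, copying or release, and enzymes that attach or remove the ubiquitin-like protein ISG15. Macrophages keep a low tonic expression of these genes and raise it when their pattern receptors are engaged.

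The transcripts of resident macrophages of the peritoneal cavity were measured on 28 arrays, 4 for each of 7 groups, every array from a separate biological experiment. The cells were washed out of the mice without thioglycollate and kept overnight in a serum-free medium, with non-adherent cells washed off before and after. Uninjected wild-type mice and uninjected ATF7 knockout mice, both on the C57BL/6 background, formed 2 of the groups. ATF7 belongs to the ATF/CREB transcription factors. The labels do not state which part of Atf7 is deleted or in which cells, and the age of the uninjected mice is not given in the sources used here. The other 5 groups were C57BL/6 mice injected intravenously at 7 to 8 weeks of age with PBS, LPS, PGN, imiquimod (IMQ) or β-glucan (BG). Their cells were taken 3 to 4 weeks later (3 weeks in the labels), at 10 to 12 weeks of age. LPS is sensed by TLR4 and imiquimod by TLR7. The knockout was compared with the wild type, and each ligand with PBS.

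In probe set 10433032 the Atf7 level was 6.94 to 7.19 (log2 signal) in the 4 knockout arrays and 9.65 to 10.31 in the 24 others. In probe set 10433034 it was 10.25 to 10.34 in the knockout and 10.64 to 10.80 in the wild type. After BG, Atf7 lay between 9.65 and 9.83 in the first and between 10.37 and 10.53 in the second, in both cases below the wild-type arrays. The 10 macrophage markers with a probe set were above the background floor in all 28 arrays. B cell markers were also present: 15 of 18 with a probe set were above the floor in every array. Of 12 T and NK cell markers, 1 was above it in every array and 6 in none. Arrays of 1 group correlated at 0.9851 to 0.9956. An unnamed probe set, picked after its values were seen, set groups apart: it read 1789.7 to 2079.6 (linear signal) in the PGN and IMQ arrays and 2509.6 to 3102.5 in the other 20. Another such probe set read 1039.8 to 1091.5 after BG, against 825.3 to 972.5 in the wild-type, knockout, PBS and LPS arrays. The labels give no batch, so whatever sets the PGN, IMQ and BG arrays apart cannot be told apart from the ligand.

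The promoters of several of these genes hold the letters of the response element. In RefSeq's promoter table (GRCm38.p6), 32 of the 42 genes had an entry, and the 250 bases upstream of each start were searched on both strands. The core of the response element, GAAA repeated after any 2 bases, was found in 7 of the 32 genes (21.9%: Isg15, Rsad2, Bst2, Trim30a, Lgals9, Ddx60 and Slfn5), against 3.46% of the 27025 genes in the table. The interferon-γ-activated site TTCNNNGAA was found in 4 of 32 (12.5%: Isg20, Bst2, Eif2ak2 and Samhd1), against 8.13%. The cAMP response element TGACGTCA, a site that ATF/CREB proteins can bind, was in 0 of 32, against 1.77%, and the AP-1 site TGAGTCA in 3 (9.4%: Rsad2, Xaf1 and Ifi35), against 5.16%. A match says that the letters are present in this window, not that a protein binds there. The 4 stretches below come from the genes with a response-element match and the largest changes on these arrays. They are written 5′ to 3′ on the gene's strand, with the match in capitals, and overlapping matches are capitalised as 1 run.
Rsad2, chr12:26456533-26456602, minus strand: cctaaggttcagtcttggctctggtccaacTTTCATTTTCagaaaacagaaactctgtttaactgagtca
Slfn5, chr11:82951917-82951986, plus strand: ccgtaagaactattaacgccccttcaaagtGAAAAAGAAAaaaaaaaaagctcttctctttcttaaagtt
Ddx60, chr8:61928004-61928086, plus strand: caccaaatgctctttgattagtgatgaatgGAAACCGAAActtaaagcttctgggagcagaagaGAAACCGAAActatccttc
Bst2, chr8:71537557-71537632, minus strand: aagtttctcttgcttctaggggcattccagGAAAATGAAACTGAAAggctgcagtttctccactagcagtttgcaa

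Ddx60 holds 2 separate matches, 53 to 10 bases upstream of its start, and Bst2 holds 2 that overlap, between 130 and 115 bases upstream. The match in Rsad2 lies on the opposite strand of the gene, and that in Slfn5 runs into a stretch of A.

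The comparison of the knockout with the wild type asked what the absence of ATF7 changed without any injection. Of the 39 genes, 38 were higher in the knockout and 0 were lower (limma, adjusted p under 0.05), where 17.7% of all genes tested were called higher and 10.7% lower. The median log2 change of the 39 was 0.79, against 0.005 over all genes, and the range was -0.01 to 1.35. At least 2-fold rises were found in 13 genes. In the same 38 genes all 4 knockout arrays lay above all 4 wild-type arrays, which held for 13.4% of all genes. The exception was Trim25, a ubiquitin ligase that activates the RNA sensor RIG-I, at 10.07, 10.15, 10.11 and 10.04 in the wild type and 10.06, 9.99, 10.13 and 10.16 in the knockout.

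**Figure D1:**
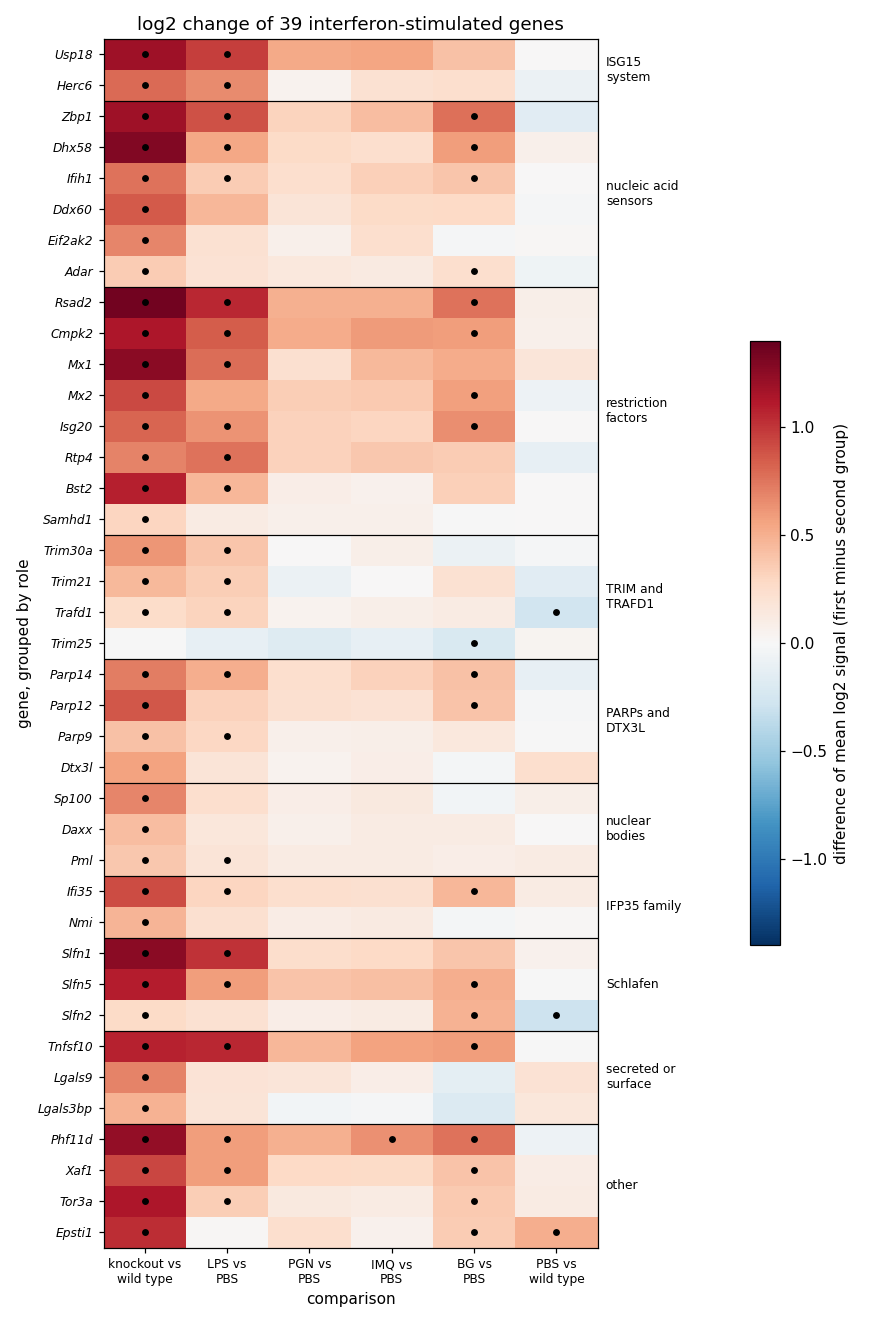
Log2 change of each of the 39 genes (rows, grouped by role) in 6 comparisons (columns), with the knockout first, the 4 ligands next and PBS against wild type last; colour gives the change and a dot marks an adjusted p under 0.05. The knockout column has 38 dots, the LPS column 24, the BG column 19, the PBS-against-wild-type column 3, the IMQ column 1 and the PGN column none.

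Among enzymes and membrane proteins that restrict viral entry, copying or release, all 8 tested genes rose in the knockout, with a median change of 1.01. Rsad2, which encodes viperin, an enzyme that makes a chain-terminating nucleotide, had the largest rise of the 39. Its log2 signal was 7.87, 8.63, 8.22 and 8.75 in the wild-type arrays and 9.34, 9.79, 9.40 and 10.31 in the knockout arrays. The groups did not overlap, and the level was 2.54-fold higher (log2 change 1.35, SE 0.258, limma adjusted p = 0.000258). Cmpk2, a mitochondrial nucleotide kinase whose gene is the neighbour of Rsad2, read 7.61, 7.81, 7.43 and 7.91 in the wild type and 8.51, 8.81, 8.52 and 9.41 in the knockout, a 2.18-fold rise. For both genes knockout replicate 4 was the highest array and wild-type replicate 4 the highest of its group.

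Mx1, which encodes a dynamin-like GTPase, read 6.37, 6.74, 6.89 and 7.04 in the wild type and 7.50, 8.14, 7.76 and 8.68 in the knockout (2.39-fold, log2 change 1.26, SE 0.218, limma adjusted p = 7.76e-05). The arrays report transcript, and whether this mouse strain makes a working Mx1 protein was not tested. Mx2, the paralog of Mx1, was at or under the background floor of 6.32 in all 4 wild-type arrays. The rise of Mx2 is therefore given as a bound, at least 1.28-fold (adjusted p = 0.000297). Bst2, or tetherin, which holds budding virions at the cell surface, rose by 1.09, and Isg20, an exonuclease, by 0.82. Rtp4, an interferon-induced chaperone, rose by 0.69. At the low end was Samhd1, which hydrolyses the deoxynucleotides that retroviruses need. It read 11.66, 11.69, 11.78 and 11.79 in the wild type and 11.86, 12.12, 11.98 and 12.15 in the knockout. Those groups did not overlap either, with a log2 change of 0.30 (SE 0.0512, adjusted p = 6.59e-05).

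Sensors of foreign or misplaced nucleic acid were also higher, 6 of 6 tested genes, in the knockout, with a median change of 0.81. Dhx58 encodes LGP2, a regulator of the RNA sensors RIG-I and MDA5, and rose by 1.30. Ifih1, which encodes MDA5 itself, rose by 0.76. Zbp1, a sensor of Z-form nucleic acid that can start necroptosis, read 8.92, 9.05, 8.81 and 9.38 in the wild type and 9.69, 10.34, 10.03 and 10.87 in the knockout. Every knockout array was above every wild-type array, 2.29-fold on average (log2 change 1.19, SE 0.187, adjusted p = 2.37e-05). The helicase gene Ddx60 rose by 0.86, Eif2ak2 (the RNA-dependent kinase PKR) by 0.68 and Adar, which edits double-stranded RNA, by 0.35.

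Both tested genes of the ISG15 system rose. Usp18, the protease that removes ISG15 and also dampens the interferon receptor, read 8.92, 9.24, 9.19 and 9.46 in the wild type against 9.94, 10.40, 10.24 and 11.00 in the knockout. The groups did not overlap and the rise was 2.28-fold (log2 change 1.19, SE 0.204, adjusted p = 6.98e-05). Herc6, the mouse ligase that attaches ISG15, rose by 0.79. Of 4 TRIM ligases and TRAF regulators, 3 rose, by 0.62 for Trim30a and 0.45 for the cytosolic antibody receptor Trim21. Trafd1, a negative regulator of innate signalling, read 11.05, 11.11, 10.99 and 11.09 in the wild type and 11.30, 11.22, 11.29 and 11.46 in the knockout (log2 change 0.26, adjusted p = 0.000645).

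The 3 Schlafen genes rose. Slfn1, which is linked to growth arrest in lymphoid cells and is the neighbour of Slfn2, read 7.92, 8.43, 8.23 and 8.62 in the wild type and 8.86, 9.54, 9.44 and 10.39 in the knockout, a 2.39-fold difference (log2 change 1.26, SE 0.247, adjusted p = 0.000322). Slfn5 rose by 1.10, but Slfn2 by only 0.27. The Slfn1 groups did not overlap, but its knockout arrays spread widely (SD 0.631, against 0.298 in the wild type).

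Secreted and surface proteins followed. Tnfsf10, which encodes the death ligand TRAIL, read 6.61, 6.77, 6.60 and 6.85 in the wild type, close above the floor, and 7.30, 7.72, 7.69 and 8.45 in the knockout (2.12-fold, log2 change 1.08, SE 0.235, adjusted p = 0.000914). Lgals9, a galectin, rose by 0.69 and Lgals3bp, a galectin-binding glycoprotein, by 0.49. The ADP-ribosyltransferase genes Parp12, Parp14 and Parp9 rose by 0.87, 0.72 and 0.41, and Dtx3l, the ligase that partners PARP9 and lies between Parp9 and Parp14 in the genome, by 0.56.

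Genes of nuclear bodies showed smaller changes. Pml, the organiser of these bodies, read 9.63, 9.62, 9.72 and 9.78 in the wild type and 9.92, 10.12, 9.98 and 10.24 in the knockout. This was a rise of 1.30-fold without overlap (log2 change 0.38, SE 0.0594, adjusted p = 2.58e-05). Sp100 rose by 0.68 and the histone chaperone gene Daxx by 0.43. Of the IFP35 family, Ifi35 rose by 0.91 and Nmi by 0.48. Among the remaining genes, Phf11d read 7.93, 8.43, 8.42 and 8.71 in the wild type and 9.13, 9.82, 9.32 and 10.16 in the knockout (2.35-fold, log2 change 1.23, SE 0.187, adjusted p = 1.56e-05). Trim30a, Phf11d and the Schlafen genes have close paralogs in the mouse, and cross-hybridisation of their probes was not tested. Tor3a, an interferon-responsive ATPase of the torsin family, rose by 1.13, Epsti1 by 1.03 and Xaf1, an antagonist of the apoptosis inhibitor XIAP, by 0.93.

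Markers of other cells moved with the genotype. Of 16 B cell markers tested, 13 were lower in the knockout, where 10.7% of all genes were lower. The mean log2 signal of the 16 was 7.40 to 7.99 in the knockout arrays and 8.04 to 8.81 in the wild-type arrays. Of the B cell markers with a probe set, Cr2 and Fcer2a were under the floor in every array. Within the knockout, replicate 4 was highest and replicate 1 lowest both for the B cell markers (7.99 and 7.40) and for the mean of the 39 genes (10.22 and 9.56), whereas wild-type replicate 1 was highest for the markers (8.81) and lowest for the 39 genes (8.91). Of 7 monocyte and dendritic cell markers 4 were lower, as were 2 of 3 tested eosinophil markers, Cd24a (-1.41) and Il5ra (-1.18). Siglecf, the third, was above the floor in all 28 arrays and was not called. Whether Cd24a and Il5ra reported eosinophils or other cells was not tested. The eosinophil markers Epx, Prg2 and Ccr3 were above the floor in no array and were not tested. Among the plasmacytoid dendritic cell markers, Siglech was above the floor in 5 of 28 arrays, and the mean of the 3 tested was 6.91 to 7.11 in the knockout and 6.93 to 7.13 in the wild type. Cox6a2, also on that list, was above the floor in all 28 arrays. It was called higher in the knockout (0.25, limma adjusted p = 0.0136), after LPS (0.29, adjusted p = 0.0242) and after BG (0.38, adjusted p = 0.000269). Pacsin1 and Siglech were not called in these comparisons. In such bulk samples, fewer cells of a type and less RNA per cell cannot be told apart. With the B cell marker mean as a covariate, the median change of the 39 genes was 0.99, larger than without it, and of the 38 called genes only Trafd1 lost its call (adjusted p = 0.0755). The marker means of the 2 groups did not overlap, so this fit cannot separate the genotype from the amount of B cell RNA. Leaving out each of the 8 arrays in turn left 38 genes called each time, with a median change of 0.63 (without knockout replicate 4) to 0.93 (without knockout replicate 1).

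**Figure D2:**
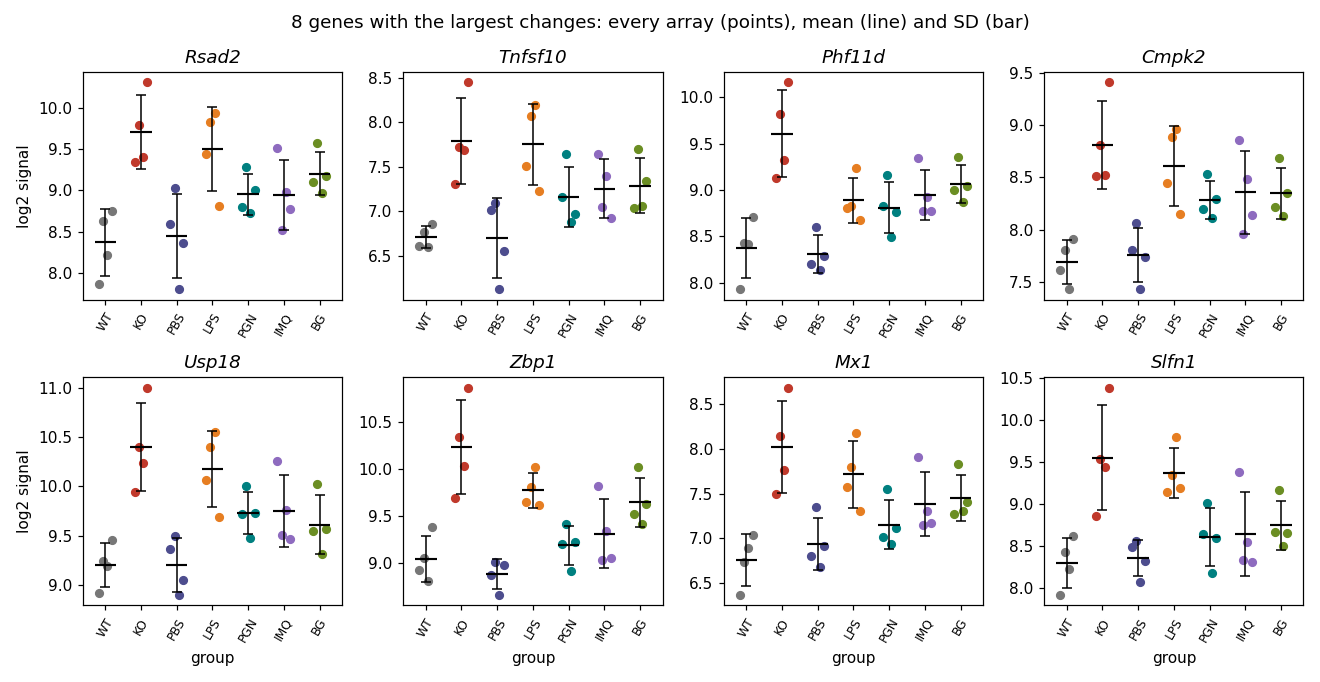
Log2 signal in every array of the 8 genes with the largest mean absolute change, 1 panel per gene; points are arrays, the line is the mean of 4 arrays, the bar is the SD and groups run along the horizontal axis. In each panel the 4 knockout arrays lie above the 4 wild-type arrays, and LPS arrays lie mostly above the PBS arrays, with Rsad2 and Mx1 overlapping.

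After LPS, at the labelled 3 weeks after injection, 24 of the 39 genes were higher than after PBS and 0 were lower, where 4.36% of all genes tested were higher and 5.52% lower. The median change was 0.36, against -0.013 over all genes. In 23 genes the LPS and PBS arrays did not overlap, which held for 8.89% of all genes. The count rests on few arrays: 1 gene (Trafd1) was called without LPS replicate 2, when 0.0296% of all genes were called in either direction. It was 4 without PBS replicate 3, 12 without PBS replicate 4 and 14 without LPS replicate 3. The median change stayed between 0.29 and 0.43.

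Rsad2 read 8.59, 9.03, 7.80 and 8.36 after PBS and 9.44, 9.83, 9.94 and 8.81 after LPS. It was 2.08-fold higher (log2 change 1.06, SE 0.258, limma adjusted p = 0.0201), although LPS replicate 4 lay below PBS replicate 2. Tnfsf10 read 7.01, 7.09, 6.12 and 6.55 after PBS, the third of these at background, and 7.51, 8.07, 8.19 and 7.23 after LPS (2.08-fold, adjusted p = 0.0151). Slfn1 read 8.49, 8.56, 8.07 and 8.32 after PBS and 9.15, 9.35, 9.80 and 9.19 after LPS, 2.01-fold higher (adjusted p = 0.0201). These 3 genes were the only ones to change at least 2-fold after LPS, and only Rsad2 of them had overlapping groups.

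Usp18 read 9.36, 9.50, 8.90 and 9.05 after PBS and 10.06, 10.40, 10.55 and 9.69 after LPS (1.96-fold, adjusted p = 0.0137). Zbp1 read 8.87, 9.01, 8.66 and 8.98 after PBS and 9.65, 9.81, 10.02 and 9.62 after LPS, 1.86-fold higher (adjusted p = 0.0137). Every LPS array was above every PBS array for both genes. Cmpk2 read 7.81, 8.06, 7.43 and 7.74 after PBS and 8.45, 8.89, 8.96 and 8.15 after LPS (1.81-fold, adjusted p = 0.0175).

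Mx1 read 6.80, 7.35, 6.68 and 6.92 after PBS and 7.57, 7.80, 8.18 and 7.30 after LPS, and PBS replicate 2 exceeded LPS replicate 4 (1.72-fold, adjusted p = 0.0302). Phf11d read 8.20, 8.60, 8.14 and 8.29 after PBS and 8.81, 8.83, 9.24 and 8.68 after LPS (1.50-fold, adjusted p = 0.047). Trafd1 changed little but was tightly measured. It read 10.86, 10.77, 10.75 and 10.80 after PBS and 11.03, 11.09, 11.23 and 11.08 after LPS (log2 change 0.31, SE 0.0541, adjusted p = 0.00931). Trafd1 was the only one of the 24 to keep its call when any 1 of the 8 arrays was left out.

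By role, 2 of 2 genes of the ISG15 system were called after LPS, 6 of 8 that restrict viral growth and 3 of 6 sensors. So were 3 of 4 TRIM and TRAF genes, 2 of 4 of the ADP-ribosylation group, 2 of 3 Schlafen genes and 1 of 3 nuclear body genes. The IFP35 family had 1 of 2 called, the secreted or surface proteins 1 of 3 and the remaining genes 3 of 4. Rtp4 rose by 0.76, Herc6 by 0.66, Isg20 by 0.63, Xaf1 by 0.59 and Slfn5 by 0.58. Pml read 9.77, 9.90, 9.71 and 9.83 after PBS and 9.93, 9.93, 10.12 and 9.96 after LPS, a change of 0.18 that just passed (adjusted p = 0.0496). Samhd1 did not pass: it read 11.74, 11.76, 11.69 and 11.78 after PBS and 11.74, 11.82, 11.91 and 11.92 after LPS (adjusted p = 0.136). Mx2 had all 4 PBS arrays and 3 of 4 LPS arrays at or under the floor, and no fold is given. B cell markers moved little, with 1 of 16 higher after LPS and none lower.

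Set side by side, the knockout and LPS raised overlapping parts of the set. All 24 genes called after LPS were also called in the knockout, as were 18 of the 18 called higher after BG. Since 38 of the 39 were called in the knockout, that overlap follows from the counts. The knockout change was larger than the LPS change in 37 genes, Rtp4 and Trafd1 being the exceptions. Over the 39 genes the 2 sets of changes, which share no array, correlated with Pearson's r = 0.74 and Spearman's rho = 0.75. Genes are not independent replicates, and no test is attached. The corresponding values for the knockout and BG were 0.74 and 0.73.

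The difference between the knockout change and the LPS change was itself tested and passed for 11 genes, all with the larger rise in the knockout, where 18.8% of all genes passed in that direction. The count of 11 of 39 is to be read against that background. The knockout change starts from the uninjected wild type and the LPS change from PBS. Any shift between these controls therefore enters the difference, and the median shift of the 39 genes from wild type to PBS was 0.01. Epsti1 had the largest difference, 1.01. It read 8.13, 8.37, 8.43 and 8.65 in the wild type and 9.16, 9.61, 9.26 and 9.66 in the knockout, whereas it read 8.61, 8.95, 8.94 and 9.13 after PBS and 8.75, 8.84, 9.04 and 9.06 after LPS. The PBS and LPS arrays of Epsti1 were interleaved, while the knockout arrays stood clear of the wild type. Epsti1 was also 0.51 higher after PBS than in the wild type (limma adjusted p = 0.00128), a shift that is part of its 1.01. Tor3a, Dhx58, Bst2 and Ifi35 differed by 0.79, 0.76, 0.63 and 0.61, and each was also called after LPS. Parp12, Lgals9, Sp100, Dtx3l, Lgals3bp and Samhd1 differed by 0.55, 0.50, 0.45, 0.38, 0.31 and 0.19 and were not called after LPS. In the same difference 14 of 16 B cell markers were lower and 1 was higher, where 10.5% of all genes were lower. With the B cell marker mean as a covariate, the call was lost for Bst2 (0.75, adjusted p = 0.0611), Samhd1 (0.25, adjusted p = 0.0856), Lgals9 (0.46, adjusted p = 0.0921) and Lgals3bp (0.30, adjusted p = 0.173). Dtx3l and Samhd1 also lost it in several other settings, Dtx3l at 0.27 with repeated quantile normalisation (adjusted p = 0.15). The count was 7 without wild-type replicate 1 and 17 without wild-type replicate 4 or without LPS replicate 3.

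**Figure D3:**
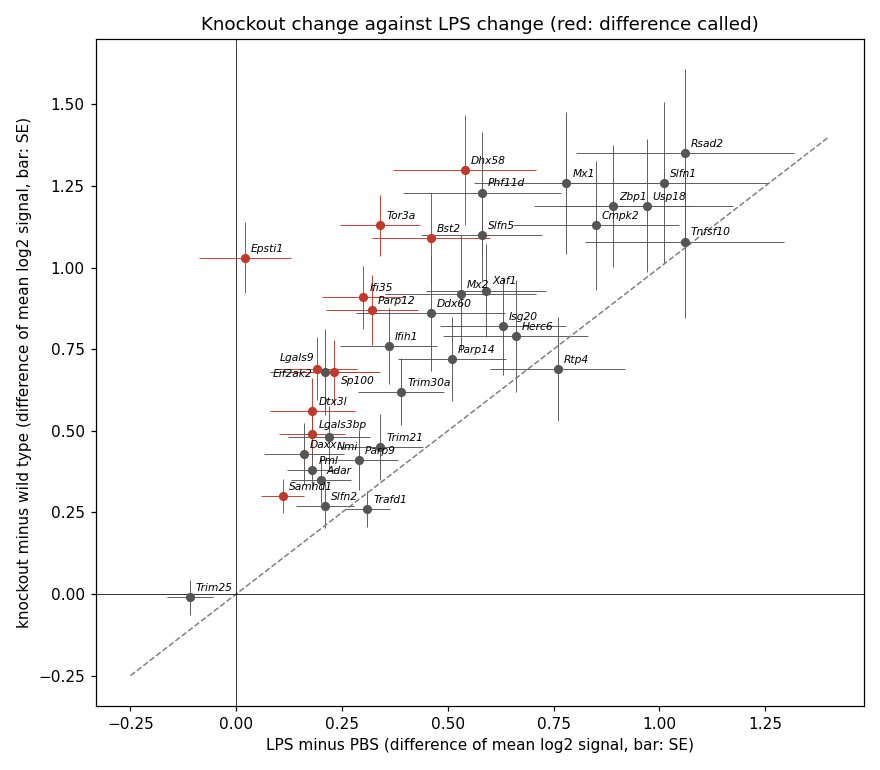
Log2 change after LPS against PBS (horizontal axis) and in the knockout against the wild type (vertical axis) for the 39 genes, with SE bars; the dashed line marks equal changes, and red symbols mark the 11 genes whose difference passed the test. All but Rtp4 and Trafd1 lie above the line, and Epsti1, at 0.02 and 1.03, lies farthest from it.

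BG was followed by 18 genes higher and 1 lower than after PBS. The background of that comparison was high, with 20.2% of all genes higher and 21.4% lower. The median change of the 39 was 0.36, against 0.019 over all genes, and 30 of 39 changes were above 0. The median equalled that after LPS, and the order of the call counts depended on the arrays. Without PBS replicate 3 the count was 13 after BG and 4 after LPS, and without PBS replicate 4 it was 19 and 12. Zbp1 read 9.52, 10.02, 9.42 and 9.63 after BG, all above the PBS arrays (1.70-fold, adjusted p = 0.00177). Phf11d read 9.0, 9.35, 8.87 and 9.04, also without overlap (1.70-fold, adjusted p = 0.00194). Rsad2 read 9.10, 9.57, 8.97 and 9.17, 1.69-fold higher, with BG replicate 3 below PBS replicate 2 (adjusted p = 0.0203).

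The 13 genes called in the knockout, after LPS and after BG were Cmpk2, Dhx58, Ifi35, Ifih1, Isg20, Parp14, Phf11d, Rsad2, Slfn5, Tnfsf10, Tor3a, Xaf1 and Zbp1. Cmpk2 read 8.22, 8.69, 8.13 and 8.35 after BG (1.50-fold, adjusted p = 0.0188) and Tnfsf10 read 7.04, 7.70, 7.06 and 7.34 (1.51-fold, adjusted p = 0.0443). The Tnfsf10 call was lost with centred arrays, repeated quantile normalisation or no filter on low signals (adjusted p = 0.0512 to 0.0529). When 1 array was left out, 7 of the 19 calls were lost at least once, those of Cmpk2, Epsti1, Mx2, Parp14, Rsad2, Tnfsf10 and Xaf1. Without PBS replicate 3, for example, the adjusted p was 0.188 for Tnfsf10, 0.101 for Rsad2 and 0.0733 for Cmpk2. Usp18, Mx1 and Slfn1 did not pass. Usp18 read 9.55, 10.02, 9.31 and 9.57, Mx1 read 7.27, 7.83, 7.31 and 7.41, and Slfn1 read 8.67, 9.17, 8.50 and 8.66, with adjusted p-values of 0.108, 0.0559 and 0.211. Each of these 3 genes had at least 1 BG array below the highest PBS array.

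Slfn2, Adar, Epsti1 and Parp12 passed after BG and not after LPS, with changes of 0.49, 0.23, 0.35 and 0.40. Mx2 also passed, but all arrays of both groups were at or under the floor and no fold is given. Tested directly, LPS and BG differed for 9 of the 39 genes, 7 higher after LPS and 2 lower. Over all genes 16.7% were higher after LPS and 18.2% lower. The count of 7 is thus near the share over all genes and the count of 2 is under it. Usp18 was higher after LPS by 0.56, Trim30a by 0.46, Lgals3bp by 0.36, Lgals9 by 0.34, Sp100 by 0.28, Nmi by 0.25 and Trafd1 by 0.19. Epsti1 was lower after LPS than after BG by a log2 difference of -0.33 and Slfn2 by -0.28. Adar and Parp12, by contrast, were not called in the direct test. Of 16 B cell markers, 6 were higher and 1 was lower after LPS than after BG. With the B cell marker mean as a covariate, 3 of these calls were lost, those of Usp18 (0.46, adjusted p = 0.125), Sp100 (0.21, adjusted p = 0.14) and Nmi (0.17, adjusted p = 0.224). Usp18, Sp100, Nmi and Epsti1 also lost the call when 1 array or another was left out, and the count of 9 became 5 without LPS replicate 2.

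The gene called lower after BG was Trim25, which read 10.07, 10.07, 10.18 and 10.23 after PBS and 9.91, 9.86, 9.97 and 9.95 after BG (log2 change -0.21, SE 0.054, adjusted p = 0.00248). Samhd1 read 11.76, 11.76, 11.69 and 11.71 after BG, within the range of PBS, and Pml read 9.89, 10.02, 9.84 and 9.84, overlapping it. Trafd1 read 10.81, 11.03, 10.82 and 10.99 after BG (adjusted p = 0.0847). Lower levels after BG than after each of the other 4 injections were found for 9 genes, among them Eif2ak2, Lgals3bp, Lgals9, Nmi and Sp100, as an order of means with no test. Of 16 B cell markers 5 were lower and 1 was higher after BG, and their mean was 8.02 to 8.17 in the BG arrays and 8.29 to 8.71 in the PBS arrays. Gata6, the factor that defines resident peritoneal macrophages, fell by 0.93 after BG and by 1.51 in the knockout. It had the largest change of the 10 macrophage markers tested in both comparisons. Of the 10, 0 were higher and 4 lower after BG (median change -0.12), where 20.2% of all genes were higher and 21.4% lower. In the knockout 2 were higher and 4 lower (median -0.04), where 17.7% of all genes were higher and 10.7% lower. With the B cell marker mean as a covariate, 22 genes were higher and 1 lower after BG. The marker means after BG and after PBS did not overlap, so that fit cannot separate the ligand from the amount of B cell RNA.

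After PGN and IMQ at most 1 of the 39 genes passed, although the mean level of the set was above that after PBS (9.28 and 9.32, against 9.08). The adjusted p depends on how many of all genes change, so equal changes can pass in 1 comparison and not in another. The mean of Cmpk2, for example, was 8.36 after IMQ, not called (limma adjusted p = 0.0702), and 8.35 after BG, where it was called. None of the 39 genes was called after PGN by limma, where 2.09% of all genes were called higher and 1.81% lower, and 10 had an unadjusted p under 0.05. After IMQ 1 gene was called, Phf11d, where 3.09% were called higher and 2.60% lower, and 13 had an unadjusted p under 0.05. The shares of all genes with an unadjusted p under 0.05 were not computed. The counts of 10 and 13 thus have no background to be read against. Phf11d read 9.34, 8.77, 8.92 and 8.77 after IMQ, above the 4 PBS arrays (1.56-fold, adjusted p = 0.0397). It kept the call without PBS replicate 2 or IMQ replicate 4 and lost it without any 1 of the other 6 arrays (adjusted p up to 0.161).

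Most changes after these ligands were nonetheless above 0, in 36 genes after PGN and 37 after IMQ. The medians were 0.18 and 0.21, against 0.016 and 0.015 over all genes. They fell to 0.11 after PGN without PGN replicate 2, and after IMQ to 0.09 without IMQ replicate 1 and 0.13 without PBS replicate 3. All these comparisons use the same 4 PBS arrays, so their directions are not independent. Rsad2 read 8.80, 9.28, 8.72 and 9.0 after PGN and 9.51, 8.52, 8.98 and 8.77 after IMQ, overlapping PBS in both cases. Cmpk2 read 8.20, 8.53, 8.11 and 8.29 after PGN, all above the PBS arrays, but its adjusted p was 0.146.

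Zbp1 read 9.20, 9.42, 8.91 and 9.22 after PGN and 9.82, 9.03, 9.34 and 9.05 after IMQ. Usp18 read 9.72, 10.00, 9.48 and 9.73 after PGN and 10.26, 9.51, 9.76 and 9.47 after IMQ. Neither gene passed after either ligand, and IMQ replicate 1 was the highest IMQ array for both. Mx1 read 7.01, 7.55, 6.94 and 7.11 after PGN and 7.91, 7.15, 7.30 and 7.17 after IMQ. Slfn1 read 8.64, 9.02, 8.18 and 8.60 after PGN and 9.38, 8.33, 8.55 and 8.31 after IMQ, and Tnfsf10 read 7.16, 7.64, 6.88 and 6.97 after PGN and 7.64, 7.05, 7.40 and 6.92 after IMQ. For all 5 of these genes PGN replicate 2 was the highest PGN array and IMQ replicate 1 the highest IMQ array. Trim25 was closest to a fall after PGN, at 9.81, 10.12, 9.98 and 9.91 (adjusted p = 0.0535).

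LPS and PGN were compared directly. Slfn1 was higher after LPS than after PGN by 0.76, Herc6 by 0.60, Zbp1 by 0.59, Trim21 by 0.42, Trim30a by 0.39 and Trafd1 by 0.26, 6 genes in all, where 2.98% of all genes were higher. Against IMQ, 5 genes were higher after LPS (Slfn1, Bst2, Trim21, Trim30a and Trafd1), where 6.45% of all genes were higher. B cell markers were lower after LPS in 2 of 16 cases against PGN, near the 9.1% of all genes that were lower. Against IMQ 4 of 16 were lower, where 12.7% of all genes were. With the B cell marker mean as a covariate Bst2 lost its call against IMQ (adjusted p = 0.0516). For the other 33 and 34 genes the difference from LPS did not pass. The count against PGN became 3 without LPS replicate 2, LPS replicate 3 or PGN replicate 3 and 11 without LPS replicate 4. Against IMQ it became 1 without LPS replicate 2, LPS replicate 3, IMQ replicate 2 or IMQ replicate 3, 2 without IMQ replicate 4, 8 without LPS replicate 4 and 11 without IMQ replicate 1.

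PBS itself changed little in the set. Against the uninjected wild type, 1 gene was higher and 2 were lower, where 19.7% of all genes were higher and 12.9% lower. The median change of the 39 was 0.01, against 0.022 over all genes. Epsti1 was higher by 0.51 after PBS. Slfn2 was lower, at 9.34, 9.39, 9.09 and 9.29 after PBS against 9.55, 9.50, 9.58 and 9.64 in the wild type, and Trafd1 was lower by a change of -0.27. The ages of the 2 groups cannot be compared from the labels. The count was 6 without wild-type replicate 4.

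In the order of group means the knockout was highest of the 7 groups for 38 of 39 genes, PBS being highest for Trim25. Among the 5 injected groups LPS was highest for 26 genes and BG for 11 (Isg20, Mx2, Ifih1, Dhx58, Parp12, Ifi35, Phf11d, Tor3a, Adar, Epsti1 and Slfn2), and PBS was lowest for 29. The mean log2 signal over the 39 genes was 9.06 ± 0.148 (SD, n = 4) in the wild type, 9.08 ± 0.136 after PBS, 9.28 ± 0.139 after PGN, 9.32 ± 0.204 after IMQ, 9.38 ± 0.149 after BG, 9.53 ± 0.184 after LPS and 9.85 ± 0.284 in the knockout. Neighbours in this order differed by less than the SD of at least 1 of the pair, except LPS and the knockout and PBS and PGN.

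**Figure D4:**
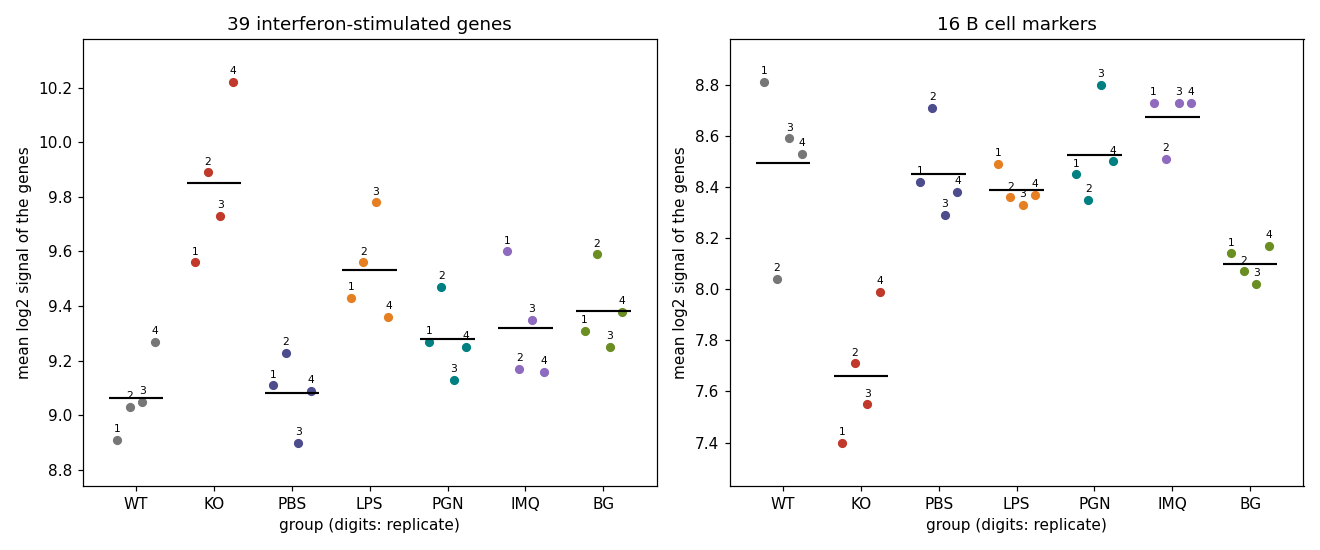
Mean log2 signal of the 39 genes (left) and of the 16 B cell markers (right) in each array of the 7 groups; points are arrays with their replicate number and the line is the group mean. For the 39 genes the knockout arrays range from 9.56 to 10.22 and the wild-type arrays from 8.91 to 9.27; for the B cell markers the knockout arrays are the lower ones, at 7.40 to 7.99 against 8.04 to 8.81.

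The genes also moved together from array to array within a group. After each gene's group mean was removed, the median correlation between pairs of the 39 genes over the 28 arrays was 0.79, and 99.5% of pairs were above 0. Over all genes the median was 0.02, with 52.1% of pairs above 0. In 6 groups 1 array had 38 or 39 of the 39 genes above their group mean: wild-type replicate 4, knockout replicate 4, LPS replicate 3, PGN replicate 2, IMQ replicate 1 and BG replicate 2. In PBS replicate 2 it was 33. At the other end, 0 of 39 genes were above the group mean in knockout replicate 1 and 1 in PGN replicate 3 and in IMQ replicate 2. The 39 genes are thus far from 39 separate measurements, and a single array with a high or low mean shifts most of them at once.

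The families left out of the set, and the steps before them in the pathway, were looked at by count. In the knockout 4 of 4 tested Ifit genes and 7 of 7 tested Oas genes rose, as did 6 of 9 GBP and IRG genes. After LPS the counts were 4, 5 and 8, and after BG 4, 5 and 3, while none of these 20 genes passed after PGN or IMQ. Iigp1, an immunity-related GTPase, rose by 1.53 in the knockout, 1.37 after LPS and 0.87 after BG. Of 20 genes for interferon receptors and their signalling, 10 rose and 1 fell in the knockout, 4 rose and 1 fell after LPS, and 5 rose and 5 fell after BG. The BG counts are near the shares over all genes in that comparison, 20.2% higher and 21.4% lower, while in the knockout 17.7% of all genes were higher and after LPS 4.36%. Irf7, the factor that amplifies interferon production, rose by 1.21, 0.90 and 0.63 in these comparisons, and Stat2 rose by 0.80 in the knockout and 0.59 after LPS.

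Upstream of interferon, 8 of 17 tested genes of nucleic acid sensing rose in the knockout, where 17.7% of all genes were higher. After LPS 2 rose and 1 fell, where 4.36% of all genes were higher and 5.52% lower. After PGN 1 rose and after IMQ 2 rose, where 2.09% and 3.09% of all genes were higher. After BG 3 rose and 4 fell, again near the shares over all genes. Ddx58, which encodes RIG-I, rose by 0.75 in the knockout and 0.39 after LPS, and Tlr3 rose by 0.58 in the knockout and fell by 0.44 after BG. Of 16 interferon genes with a probe set, 7, Ifnb1 among them, were above the floor in no array. Ifnl2, Ifnz, Ifna5 and Ifna14 were above it in all 28 arrays, with mean log2 signals of 8.33, 7.60, 7.55 and 6.66. The floor by its definition leaves some odorant and vomeronasal receptor probe sets above it. A signal over it therefore does not show that these interferon genes were expressed. Of the 8 tested, 0 were called in the knockout, after LPS, PGN or IMQ by limma, and 2 rose after BG, Ifna5 by 0.34 and Ifna14 by 0.18, where 20.2% of all genes were higher.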

How the data were processed

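The 39 genes, the pathway and marker lists and the tests were chosen with earlier results of these data known. Per the submitters' processing notes, the authors made the deposited intensities with RMA in Affymetrix Expression Console. The sources used here name neither a version nor a genome build. The deposited table holds 1 linear intensity, called signal here, per probe set (35556) and array, with array medians of 107.1 to 114.6. Here log2 was taken with no further normalisation. Names came from the platform table, 21789 probe sets having 1 symbol, 1621 several and 12146 none.

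The floor is the level under which 95% of 1210 probe sets for odorant and vomeronasal receptors had their mean (6.32 in log2, 80.0 in linear signal). Probe sets above it in at least 4 arrays were kept (14800), and the one with the highest mean stood for a gene (13512). Folds against groups wholly at or under the floor are bounds computed against it.

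limma 3.58.1 in R 4.3.3 fitted 1 mean per group over all 28 arrays, and moderated the variances along the mean signal. Benjamini-Hochberg adjustment ran over all 13512 genes of a comparison, and an adjusted p under 0.05 was called. Single-gene exact permutation tests of 4 against 4 arrays cannot go below 0.0286. The number of arrays limits the precision. On simulated data for LPS against PBS (13512 genes, 200 shifted), 93% of log2 shifts of 0.5 and 100% of shifts of 1 were recovered, with 6 unshifted genes called. The simulated noise was drawn separately for each gene, whereas the 39 genes moved together within groups (median correlation 0.79). These shares therefore do not give the recovery to be had for this set. Values in every array are given for the 8 genes with the largest and the 4 with the smallest mean absolute change over the knockout and 4 ligand comparisons, and for genes a result turns on. The other settings tried were centring, repeated quantile normalisation, other filters, the mean of a gene's probe sets, moderation without a trend, separate fits, the replicate number as a block, the B cell marker mean as a covariate, and leaving out each array. Where the marker means of the groups compared do not overlap, that covariate cannot separate the group from the amount of B cell RNA. Same-numbered arrays were not paired: the correlations of their deviations from the group means ran from -0.456 to 0.446, and in no comparison were all above 0.1.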

Additional observations from a re-analysis of the deposited data

Results flagged for a closer look

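In groups of 4 arrays, an array was taken as far from the others where its gap to the nearest exceeded Dixon's 95% critical share of the group's range. This held for 12 of 273 gene and group combinations (4.4%), and chance alone gives about 1 in 20. In PBS replicate 3 the lowest values were 5.24 for Mx2 (the others 5.79 to 5.86, all under the floor), 8.33 for Dhx58 (8.52 to 8.54) and 8.44 for Ifi35 (8.55 to 8.57). In BG replicate 2 the highest were 8.83 for Eif2ak2 (8.49 to 8.54), 12.46 for Lgals3bp (12.16 to 12.21) and 11.07 for Lgals9 (10.82 to 10.84). LPS replicate 3 was highest for Lgals9 at 11.36 (11.16 to 11.19) and for Pml at 10.12 (9.93 to 9.96). Knockout replicate 2 was highest for Tor3a at 11.05 (10.64 to 10.68). Daxx stood apart at 8.67 in wild-type replicate 4 (8.35 to 8.41) and at 8.71 in IMQ replicate 1 (8.53 to 8.55), and Slfn2 at 9.47 in PGN replicate 2 (9.33 to 9.35).

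The rise in the knockout and the rise after LPS differed by a direct limma test for 11 genes. The log2 difference, knockout change minus LPS change, was 1.01 for Epsti1, 0.79 for Tor3a, 0.76 for Dhx58, 0.63 for Bst2, 0.61 for Ifi35 and 0.55 for Parp12. It was 0.50 for Lgals9, 0.45 for Sp100, 0.38 for Dtx3l, 0.31 for Lgals3bp and 0.19 for Samhd1. In the same test 18.8% of all genes had the larger change in the knockout. The difference includes any shift between the uninjected wild type and PBS, which for Epsti1 was 0.51.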

How the results depend on the processing

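No called gene changed direction under any setting tried. In the knockout the count of 38 became 37 with the stricter filter, which left Mx2 untested, and 37 with the B cell marker mean as a covariate, where the median change was 0.99; it held under the other settings. After LPS, 10 of the 24 called genes lost the call in at least 1 setting other than leaving out an array, with 18 to 27 called. Separate settings gave 1 call after PGN (lower with repeated quantile normalisation, higher in a fit of the PGN and PBS arrays alone) and 0 after IMQ with centred arrays or with the covariate. PBS against wild type had 7 calls (5 higher, 2 lower) with centred arrays. LPS against IMQ had 3 with centred arrays and 9 with repeated quantile normalisation. The difference between the knockout and LPS changes had 17 calls with centred arrays and a median of 0.50 with the covariate. The cause was not tested.

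Leaving out each array in turn gave these ranges of calls and of median log2 changes. The knockout had 38 to 38 calls and medians of 0.63 to 0.93, LPS 1 to 24 and 0.29 to 0.43, PGN 0 to 1 and 0.11 to 0.25, IMQ 0 to 2 and 0.09 to 0.26, and BG 13 to 22 and 0.27 to 0.41. PBS against wild type had 3 to 6 calls and medians of -0.05 to 0.08. LPS against PGN had 3 to 11 and 0.13 to 0.28, against IMQ 1 to 11 and 0.10 to 0.27, and against BG 5 to 11 and 0.09 to 0.21. The knockout minus LPS difference had 7 to 17 and 0.15 to 0.41. With the replicate number as a block, LPS had 23 calls in place of 24, BG 21 in place of 19 and the difference test 10 in place of 11; no count of calls moved by over 1.5 times. Mx2 and, after PBS, Tnfsf10 lay near the floor, where array signal limits what a fold can show.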
